A study of Mus musculus with 4 samples.

Results

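Mir10a and Mir10b, the miRNA genes that lie beside Hoxb4 and Hoxd4, were followed in small RNA from Tbx18-lineage stroma of the mouse embryo. They are the 2 rows of the deposited table whose Entrez gene IDs, 723893 and 387144, carry these symbols, out of 2976 rows and 643 miRNA genes. The cells came from the stroma around the wolffian duct, the tube from which the ureteric bud grows, of CD1 embryos at E10.5. All 4 libraries had the genotype Tbx18-Cre;CAG-tdTomato, with which the Tbx18 promoter drives Cre and cells that have made Cre, and their descendants, turn on a red reporter, and all were described as wild type. Positive cells were collected by flow sorting. A reporter of this kind marks the lineage and not only the cells with Tbx18 at that stage. There was 1 group and no control. Whether each library is a separate embryo or a pool cannot be read from the labels, so the spread given here is the spread between these libraries and may be technical.

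The miR-10 genes are old members of the Hox clusters, the gene arrays that pattern the body from head to tail, and they are kept beside the Hox4 genes in many vertebrates. A miRNA hairpin is cut into arms named 5p and 3p, and the seed, the bases near the 5′ end of a mature arm, pairs with target mRNAs and lowers their output. Hox mRNAs are among the known targets of miR-10 in other settings, such as HOXD10 in human breast cancer cells.

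Mir10a lies on chromosome 11 at 96317165 to 96317274 of GRCm38, on the plus strand, 992 nt before Hoxb4 and 11043 nt after Hoxb5 by RefSeq gene spans. GENCODE vM21 lists no other gene over it, while the RefSeq span of Hoxb3 covers it. Mir10b lies on chromosome 2 at 74726070 to 74726137, also on the plus strand, 4092 nt downstream of the RefSeq start of Hoxd4. It falls within Hoxd4 and Hoxd3 in both annotations and overlaps no GENCODE exon of them. The 2 hairpins, shown because their unequal length enters every TPM value, read as follows from RefSeq (GRCm38.p6), 5′ to 3′, with the mature arms in capitals.
Mir10a: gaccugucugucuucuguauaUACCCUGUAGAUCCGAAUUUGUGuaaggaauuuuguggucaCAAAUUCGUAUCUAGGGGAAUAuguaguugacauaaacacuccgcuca
Mir10b: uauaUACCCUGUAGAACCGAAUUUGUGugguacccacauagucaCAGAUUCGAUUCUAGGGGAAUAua

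**Figure D1:**
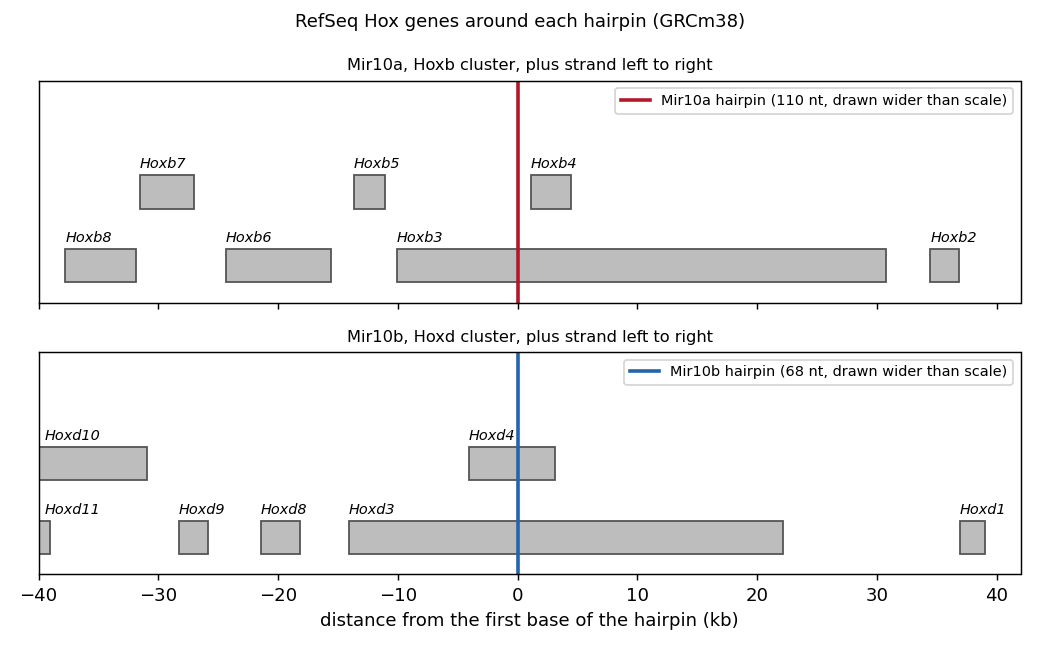
RefSeq Hox genes (grey bars) around the Mir10a hairpin (top) and the Mir10b hairpin (bottom), by distance in kb from the first base of the hairpin. Both hairpins sit near a Hox4 gene, Mir10a 992 nt before Hoxb4 and Mir10b inside the span of Hoxd4, and both lie inside the span of a Hox3 gene.

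The annotated precursors measure 110 nt for Mir10a and 68 nt for Mir10b. Their mature arms have equal lengths, 23 nt for 5p and 22 nt for 3p, so the difference lies in flanking sequence and loop. The 5p arms match at 22 of 23 bases and carry the same seed, shown here in capitals as bases 2 to 8.
miR-10a-5p: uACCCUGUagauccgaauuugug
miR-10b-5p: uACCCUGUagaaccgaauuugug
miR-99a-5p: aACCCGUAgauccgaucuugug
miR-99b-5p: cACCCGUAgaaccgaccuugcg
miR-100-5p: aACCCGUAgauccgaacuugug
Counted from the 5′ end, with miR-10a as the reference, the single change between the miR-10 5p arms is U12A, outside the seed. The 3p arms match at 19 of 22 bases and differ by A3G, U9A and A10U, so the first of these changes falls in their seed. Of 1738 mature miRNAs in the RefSeq table, these 2 alone have the seed ACCCUGU. The relatives miR-99a, miR-99b and miR-100 have the seed ACCCGUA, which starts with the same bases and then departs from it. The longest run that miR-10a-5p shares is 11 nt with miR-100-5p and 10 nt with miR-99a-5p, and miR-10b-5p shares its longest, 10 nt, with miR-99b-5p. The table has 1 value per precursor gene, so 5p and 3p arms could not be separated. Reads of the 2 genes from the 5p arm are told apart by 1 base, and the sources used here do not give how reads with a mismatch were assigned.

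The deposited unit is TPM, in which each gene's reads are divided by its length and the whole library is brought to a set sum. Table sums were 2.33% to 7.22% of that sum, so a level in TPM moves with what genes outside the table took. TPM times hairpin length was a whole multiple of 1 constant in each library for 100% of nonzero miRNA values within a tolerance of 0.01, and that multiple is given here as reads. Libraries 1 to 4 held 883201, 1087240, 978210 and 146255 miRNA reads. The depth of library 4 was the least, 7.43 times below that of library 2. Of markers of the labelled cell kind, the mesenchymal list (Mir199a-1, Mir199a-2, Mir199b and Mir214) had 2 of 4 members above 1 TPM in all libraries and summed to 0.779% to 3.12% of miRNA TPM. Mir199a-2 and Mir214 were listed at 0. Broadly expressed miRNA genes such as Mir21a and Mir22 were also listed at 0 in all libraries, so such a 0 is a listed value and sets no limit on the level.

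Both genes stood at the top of the miRNA pool as listed. Every rank and share given here is among the listed values. Genes listed at 0, such as Mir21a and Mir22, add nothing to that pool, so their place beside the miR-10 genes is not known. Mir10a had 2210, 5257, 6891 and 1358 TPM in libraries 1 to 4, which averages to 3929 ± 2589 TPM (SD, n = 4). Mir10b had 2595, 10608, 12361 and 2333 TPM in the same libraries, which averages to 6974 ± 5258 TPM (SD, n = 4). Each gene was high in libraries 2 and 3 and low in libraries 1 and 4, with its highest value in library 3 at 5.07 times the lowest for Mir10a and 5.30 times for Mir10b.

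In reads, before division by hairpin length, Mir10a had 62174, 118873, 145328 and 16105 reads in libraries 1 to 4. Mir10b had 45129, 148281, 161137 and 17102 reads. On this scale Mir10a was ahead in library 1 and Mir10b in libraries 2, 3 and 4. As TPM times length, which is the form without the read constant, Mir10a ranged over 149393 to 758060 TPM × nt and Mir10b over 158641 to 840522 TPM × nt.

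**Figure D2:**
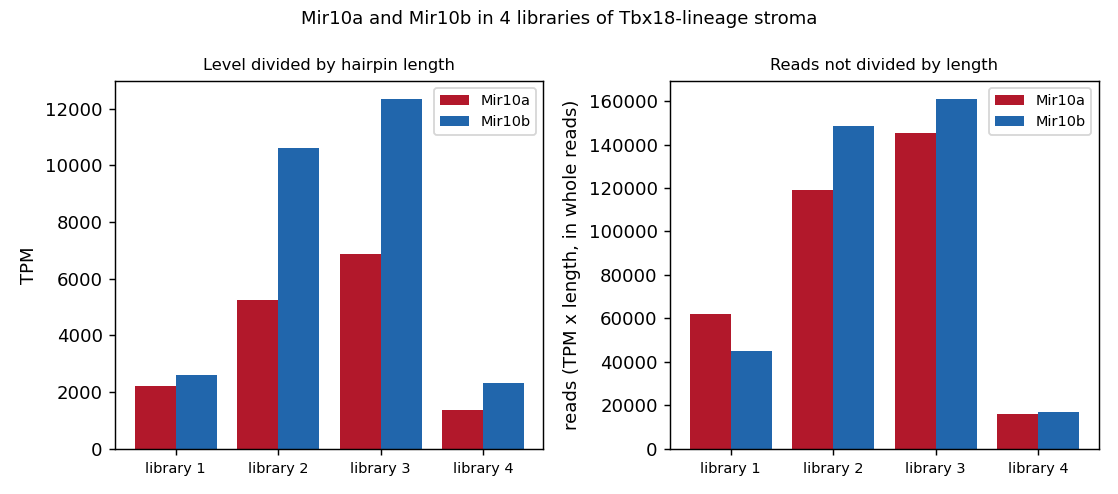
Mir10a (red) and Mir10b (blue) in each of 4 libraries, as TPM (left) and as reads recovered from TPM and hairpin length (right), 1 bar per library with no error. The blue bar is the taller one in all libraries on the left, while on the right the red bar is taller in library 1, at 62174 against 45129 reads.

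As a share of all miRNA TPM, Mir10a made up 5.20%, 8.03%, 11.2% and 8.28% in libraries 1 to 4, with a mean of 8.17% ± 2.44 (SD, n = 4). Mir10b made up 6.11%, 16.2%, 20.03% and 14.2%, with a mean of 14.1% ± 5.87 (SD, n = 4). Together they took 11.3%, 24.2%, 31.2% and 22.5%, so in library 1 the 2 genes held a smaller part of the pool than in any other library. This order differs from that in TPM, where library 4 was lowest for both genes.

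As a share of miRNA reads, Mir10a took 7.04% in library 1 (95% exact Clopper-Pearson interval 6.99% to 7.09%), 10.9% in library 2 (10.87% to 10.99%), 14.9% in library 3 (14.8% to 14.9%) and 11.01% in library 4 (10.9% to 11.2%). Mir10b took 5.11% in library 1 (5.06% to 5.16%), 13.6% in library 2 (13.57% to 13.70%), 16.5% in library 3 (16.4% to 16.5%) and 11.7% in library 4 (11.5% to 11.9%). The intervals cover counting error only. Mir10a in libraries 2 and 4 had overlapping intervals, and every other pair of libraries had separate intervals for each gene. The intervals count each read as independent, and no source used here mentions molecular identifiers. This independence was not tested, so the intervals may be too narrow.

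By TPM rank among the 643 miRNA genes, Mir10b was first in all 4 libraries. Mir10a was second in libraries 2, 3 and 4 and the fourth in library 1, behind Mir10b, Mir99a at 2570 TPM and Mir99b at 2387 TPM. In library 1 Mir10b exceeded Mir99a by a ratio of only 1.01, whereas its ratio to the highest other miRNA outside the miR-10 genes was 2.19 in library 2 (Mir99a, 4843 TPM), 4.32 in library 3 (Mir9-3, 2861 TPM) and 3.17 in library 4 (Mir541, 735 TPM). The same ratio for Mir10a was 0.860, 1.09, 2.41 and 1.85 in libraries 1 to 4. By reads, the 2 genes held the first 2 ranks in every library, with Mir10a first in library 1. The others among the 5 highest by TPM were Mir125a in library 1, Mir99b and Mir26a-2 in library 2, Mir99a and Mir92-2 in library 3, and Mir148a and Mir99b in library 4.

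Among the 110 miRNA genes with at least 100 reads in every library, the median level was 142, 191, 175 and 54.3 TPM in libraries 1 to 4. Mir10a stood 15.6, 27.6, 39.4 and 25.01 times above that median. Mir10b stood 18.3, 55.7, 70.7 and 43.0 times above it. For both genes, then, library 1 had the smallest and library 3 the largest distance from a typical abundant miRNA.

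Over the 4 libraries Mir10b varied more than Mir10a, through library 1. The SD of the log2 share of miRNA TPM was 0.45 for Mir10a and 0.75 for Mir10b, against a median of 0.56 over the 110 genes. Of these genes, 68 had a larger SD than Mir10a and 33 had a larger SD than Mir10b. With TPM rescaled to the same miRNA total in each library, the coefficient of variation was 29.8% for Mir10a and 41.5% for Mir10b, compared with 65.9% for Mir10a and 75.4% for Mir10b for TPM as deposited. Without library 1 the SD of the log2 share was 0.26 for Mir10a and 0.25 for Mir10b, and the median over the 110 genes was 0.50.

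The balance between the paralogs was examined within each library, where scaling drops out. In TPM, Mir10a lay below Mir10b in 4 of 4 libraries. The log2 ratio of TPM + 1 was -0.23, -1.01, -0.84 and -0.78 in libraries 1 to 4, with a mean of -0.72 ± 0.34 (SD, n = 4; exact two-sided sign-flip permutation test p = 0.125, or 0.167 after Benjamini-Hochberg over 4 ratios). That p is the smallest that 4 libraries allow, so no ratio here could pass a threshold of 0.05. In reads the difference between the genes was not larger than the spread between libraries. The log2 ratio of reads + 1 was 0.46, -0.32, -0.15 and -0.09, with a mean of -0.02 ± 0.34 (SD, n = 4; exact two-sided sign-flip permutation test p = 0.875). Since the mature arms have equal lengths, scaling to mature length would give the ratio of the reads. The order of Mir10a and Mir10b therefore depends on the length by which the reads are divided.

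Of the reads of both genes together, Mir10a held 57.9% in library 1 (95% exact Clopper-Pearson interval 57.6% to 58.2%), 44.5% in library 2 (44.3% to 44.7%), 47.4% in library 3 (47.2% to 47.6%) and 48.5% in library 4 (47.96% to 49.04%). The mean was 49.6% ± 5.82 (SD, n = 4). Libraries 2, 3 and 4 lay within a few percent of each other with Mir10b ahead, and library 1 lay apart with Mir10a ahead. Without library 1 the mean log2 ratio of reads was -0.18 ± 0.12 (SD, n = 3), with p = 0.25 in the exact permutation test, the smallest that 3 libraries allow. Leaving out a library in reads was chosen after the data were seen. The mean was 0.0755 without library 2, 0.0189 without library 3 and -0.0019 without library 4.

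**Figure D3:**
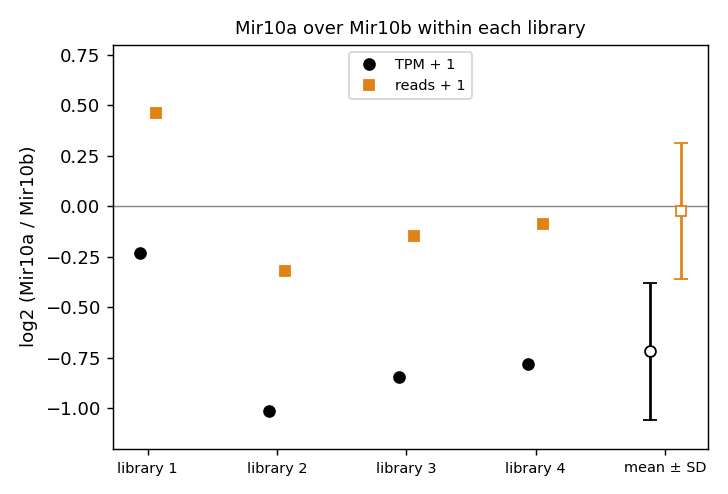
The log2 ratio of Mir10a to Mir10b in each library, from TPM + 1 (black circles) and from reads + 1 (orange squares), with the mean and SD over 4 libraries as open symbols. The TPM ratios are all below 0, from -1.01 to -0.23, while the read ratios lie on both sides of 0, from -0.32 to 0.46.

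Library 3, where the miR-10 shares were highest, carried the most neural miRNA. The neural list (8 genes of miR-9, miR-124 and miR-219, with Mir124a-1 listed at 0) summed to 0.824%, 0.0570%, 4.99% and 0.597% of miRNA TPM in libraries 1 to 4, most of it Mir9-3. It was highest in library 3, where the shares of both miR-10 genes were also highest, and lowest in library 2, where the share of Mir10a, at 8.03%, was below that in library 4 and the share of Mir10b, at 16.2%, was above it. Other lists also differed between libraries. The mesenchymal list was highest in library 1, at 3.12%, where the miR-10 shares were lowest, and lowest in library 4, at 0.779%. The epithelial list (Mir200a, Mir200b, Mir200c, Mir141 and Mir429) ran from 0.0553% in library 2 to 0.191% in library 4. Smooth muscle Mir143 and Mir145a together ran from 0.955% in library 3 to 1.71% in library 2. Endothelial Mir126a was at 0.659% in library 1 to 1.53% in library 4. The striated muscle list, with Mir1a-2 listed at 0, was at 0.198% in libraries 2 and 3 and reached 1.37% in library 4. The erythroid pair Mir144 and Mir451a reached at most 0.0192%, in library 3. The white blood cell list, with Mir223 listed at 0, reached at most 0.0220%, in library 4. The part of such cells in the miR-10 levels was not tested. In sorted bulk material, fewer cells of a type and less RNA per cell cannot be told apart.

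Among the listed genes, 6 miRNA genes lay in the Hox clusters, and the miR-10 genes made up most of their sum. The other 4 are the Mir196 genes, which lie among the posterior Hox genes and are known to repress Hoxb8, and Mir615 in the Hoxc cluster. Mir10a and Mir10b took 76.5%, 88.0%, 92.9% and 82.95% of the Hox miRNA TPM in libraries 1 to 4, or 85.1% ± 6.999 (SD, n = 4). Their sum was 10903 ± 7821 TPM, against 1468 ± 575 TPM for the other 4 genes (SD, n = 4). The log2 ratio was 1.71, 2.87, 3.71 and 2.28 in libraries 1 to 4, with a mean of 2.64 ± 0.86, above 0 in 4 of 4 libraries (exact two-sided sign-flip permutation test p = 0.125, or 0.167 after Benjamini-Hochberg).

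By cluster, the Hoxb and Hoxd clusters held most of the Hox miRNA. In TPM the Hoxb cluster gave 32.4% ± 2.85 of it and the Hoxd cluster, through Mir10b alone, 53.1% ± 8.45 (SD, n = 4 each). In reads the Hoxb cluster gave 42.1% ± 2.91 and the Hoxd cluster 42.8% ± 7.72 (SD, n = 4 each), with Hoxb ahead in library 1 at 45.01% against 32.1%, so their order in TPM does not hold in reads. The Hoxc cluster gave 12.01% ± 5.88 of the TPM and the Hoxa cluster, through Mir196b, 2.54% ± 0.990 (SD, n = 4 each). Mir10a shares the Hoxb cluster with Mir196a-1, on chromosome 11 at 96265164 to 96265265, which had 40.1, 50.5, 45.2 and 13.5 TPM. As listed, Mir10a was therefore 55.1 to 152 times above Mir196a-1, lowest in library 1 and highest in library 3. This ratio depends on how reads were split between Mir196a-1 and Mir196a-2, which the sources used here do not give. Mir196a-2 had a mean of 512 ± 242 TPM, Mir196b 267 ± 114 TPM and Mir615 652 ± 256 TPM (SD, n = 4 each), so the split of miR-196a between its 2 copies is uncertain where they share mature sequence. The other 7 rows within 10000 nt of a Hox cluster were lncRNA genes, the highest at 0.120 TPM. The libraries were of small RNA, so these values do not measure the level of long RNAs.

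Of the 3 lists compared with the miR-10 genes, the relatives with the ACCCGUA seed were nearest in level. Mir99a, Mir99b and Mir100 summed to 5542 ± 3545 TPM, compared with the 10903 ± 7821 TPM of Mir10a and Mir10b (SD, n = 4). The log2 ratio of the miR-10 sum to the miR-99/miR-100 sum was -0.24, 0.72, 1.71 and 1.91 in libraries 1 to 4, with a mean of 1.03 ± 0.99, above 0 in 3 of 4 libraries (exact two-sided sign-flip permutation test p = 0.25, and also 0.25 after Benjamini-Hochberg). Library 1 was the exception in direction. In reads the mean was 1.31 ± 0.96, with p = 0.125 in the exact permutation test.

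Against the mesenchymal miRNAs the miR-10 genes were higher in 4 of 4 libraries. The sum of Mir10a and Mir10b was 10903 ± 7821 TPM and that of the miR-199/miR-214 list 891 ± 550 TPM (SD, n = 4). The log2 ratio was 1.86, 3.66, 4.49 and 4.84 in libraries 1 to 4, with a mean of 3.71 ± 1.33 (exact two-sided sign-flip permutation test p = 0.125, or 0.167 after Benjamini-Hochberg). Since Mir199a-2 and Mir214 were listed at 0, the list sum may be understated. Each member of the list was listed below both miR-10 genes in every library. The direction therefore follows from the ranks given before, and the test adds no support to it. In all 3 of these comparisons library 1 had the lowest ratio.

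**Figure D4:**
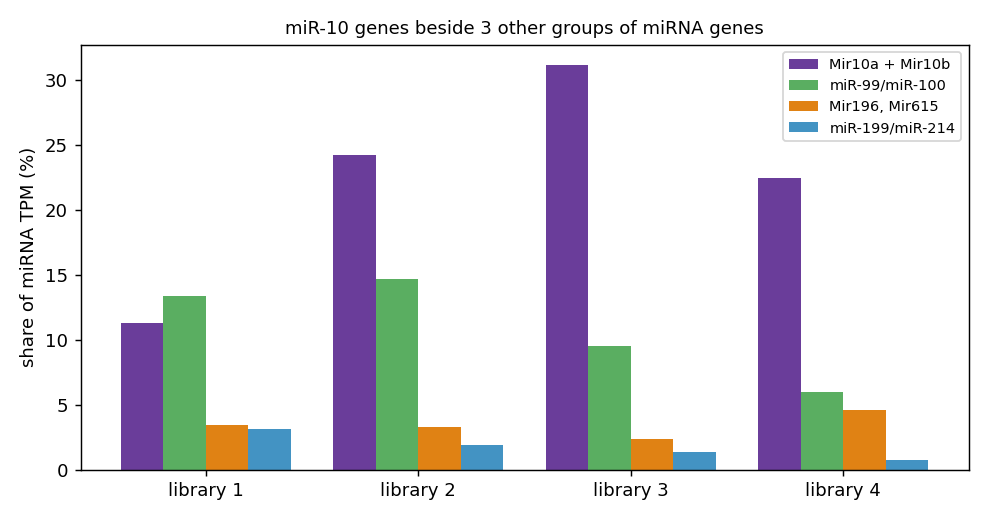
Share of all miRNA TPM in each library for Mir10a plus Mir10b, for miR-99/miR-100, for the Mir196 genes with Mir615, and for the miR-199/miR-214 list, 1 bar per library with no error. The miR-10 genes are highest in libraries 2, 3 and 4, and in library 1 they are at 11.3% and miR-99/miR-100 at 13.4%.

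The genes most like each miR-10 gene were found as those with the smallest SD, over the 4 libraries, of the log2 ratio of their TPM to its TPM, among the 110 genes with at least 100 reads in every library. For Mir10a these were Mir345 at an SD of 0.14, Mir872 at 0.23 and Mir30c-2 at 0.25, where the median of all genes was 0.78. Mir345 had 29.9, 77.6, 80.8 and 18.7 TPM in libraries 1 to 4, far below Mir10a in level. It lies on chromosome 12 at 108836973 to 108837068. For Mir10b they were Mir7-1 at 0.24, Mir7-2 at 0.31 and Mir10a at 0.34, where the median was 1.00. Mir7-1 had 25.2, 97.02, 111 and 29.9 TPM, and Mir7-2 had 179, 670, 567 and 175 TPM. Mir7-1, on chromosome 13, and Mir7-2, on chromosome 7, are copies with the same 5p arm, so the reads between them may not be separable.

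Mir10a was thus the third gene in likeness to Mir10b, while Mir10b was 12th in likeness to Mir10a. These likenesses rest on 4 libraries and describe them only. With at least 10 reads as the limit, 219 genes could be compared, and 1 of the 3 genes was the same for Mir10a and 0 of 3 for Mir10b. The genes that came in were low, such as Mir34c at a mean of 7.93 TPM for Mir10a and Mir19b-2 at 8.30 TPM for Mir10b.

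**Figure D5:**
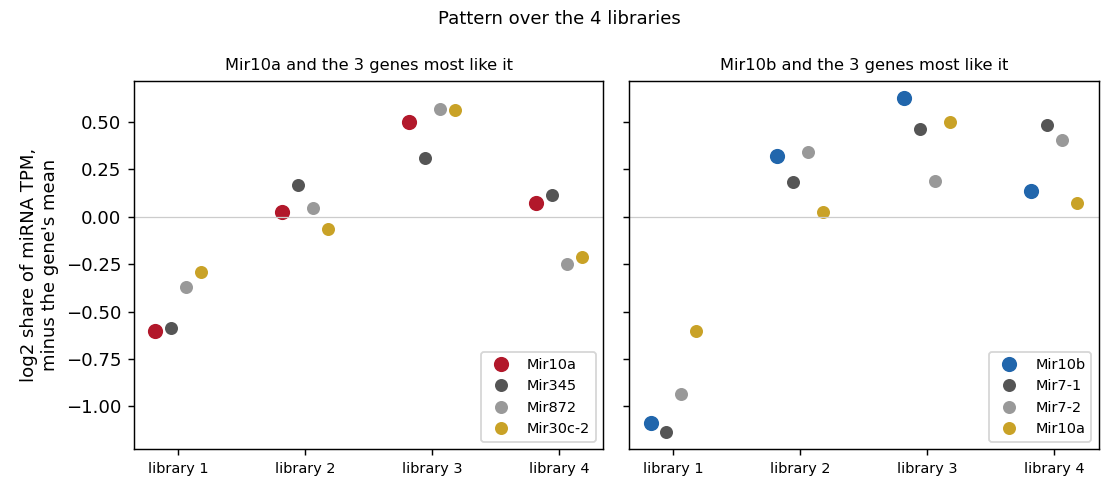
The log2 share of miRNA TPM in each library, minus the gene's own mean over the 4 libraries, for Mir10a (left, red) and Mir10b (right, blue) and for the 3 genes most like each. Library 1 is the lowest library for both miR-10 genes and library 3 the highest.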

How the data were processed

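Small RNA libraries were made with a NEBNext small RNA kit from total RNA of sorted cells, per the labels' protocols. The authors deposited TPM per gene. Per the submitters' processing notes the genome was mm10 (GRCm38), and limma is named with no role. The aligner, the counter and the annotation were not given in the sources used here. Rows were joined by gene ID to RefSeq genes of GRCm38.p6, and 2541 of 2976 matched, with both miR-10 genes among them. Reads were recovered as TPM times gene length over the smallest nonzero value, and no count model was fitted. Recovery, the sign-flip test and the likeness ranking were tested on simulated data.

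Ratios used a pseudocount of 1 TPM and a two-sided exact sign-flip permutation test over 4 libraries, with Benjamini-Hochberg adjustment over 4 ratios. Named genes are the 2 members, miRNAs of the Hox clusters with a mean of at least 1 TPM, the genes of the compared lists, the 5 highest miRNAs per library and the 3 most like each member. Genes given as examples under the limit of 10 reads were chosen after their values were seen. Genes and lists were chosen with earlier results of these data known. Alternatives covered pseudocount, filter, scaling, denominator and leaving out each library. Computation used Python 3.11.15, numpy 2.4.6, pandas 2.3.3, scipy 1.17.1 and matplotlib 3.10.9.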

Additional observations from a re-analysis of the deposited data

How the results depend on the processing

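The 4 ratios had the same direction with a pseudocount of 0.1 or 10 TPM and without each library. At these levels a pseudocount could hardly change a direction. Leaving out low members changed none of the 4 values, so it is no check of them. In reads the 3 ratios of the summed miR-10 genes kept their direction, while Mir10a over Mir10b was near 0, at -0.02. Without each library in turn the mean log2 ratio of Mir10a to Mir10b ranged from -0.88 to -0.62 in TPM. In reads, a combination chosen after the data were seen, it ranged from -0.18 to 0.08, and it turned to 0.0755 without library 2 and 0.0189 without library 3, so no order is held in reads. The ratio to miR-99/miR-100 ranged from 0.73 to 1.45 without each library. The mean share of Mir10a was 11.0% of miRNA reads, compared with 8.17% of miRNA TPM, and 14.6% with the reads of the other miRNA genes as the denominator. The mean rank of Mir10b was 1.25 by reads and 1.00 by TPM. The SD of the log2 share of Mir10a minus that of Mir10b was -0.30, and 0.014 without library 1 (range without each library -0.39 to 0.014, chosen after the data were seen). The share of Hox miRNA of the Hoxb minus that of the Hoxd cluster was -20.7 percentage points in TPM and -0.74 in reads. Of 92 alternatives, 83 kept the value within the spread between libraries or its direction. The 83 include alternatives that could hardly differ. They also count Mir10a over Mir10b in reads as kept, at -0.02, so the tally is no measure of how stable that ratio is. Depth limits no value of the miR-10 genes, whose lowest count was 16105 reads. Samples could not be paired between groups because there was 1 group, while the ratios paired genes within each library.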
